A study of Mus musculus with 12 samples.

Results

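The comparison described here is that of differentiated adipocyte cultures of the genotype D1D2KO with those of WT, taken gene by gene as the mean log2 array signal in D1D2KO minus the mean in WT. All probe sets that the array's annotation pairs with 1 gene were included, apart from genes on the X and Y chromosomes. They came to 20871 of 35556 probe sets, or 19103 autosomal genes of 19938 genes, each read by its brightest probe set. D1D2KO cells are deficient in both DGAT1 and DGAT2, and the labels give C57BL6 as the strain of both genotypes. The cells were fibroblasts of day 14 mouse embryos, and each genotype gave 3 differentiated samples (WT differentiated, D1D2KO differentiated) and 3 that were left undifferentiated. All differentiated samples, those of WT included, had the same course. From day 2 after confluence they received dexamethasone (1 µM), isobutylmethylxanthine (500 µM), insulin (5 µg/ml) and the PPARγ agonist troglitazone (15 µM) for 2 to 3 days. Insulin and troglitazone at the same doses followed for 2 days, and then medium with serum alone until harvest. The samples are described as biological replicates without naming an embryo or culture for each, so the spread behind the p-values is that among these samples and may be technical.

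DGAT1 and DGAT2 each join a fatty acyl group to diacylglycerol, which is the step that completes triacylglycerol, the fat held in the lipid droplets of adipocytes. DGAT1 sits in the endoplasmic reticulum, whereas DGAT2 is also found at lipid droplets. In culture, conversion of fibroblasts to adipocytes is driven by the transcription factors PPARγ and C/EBPα, and the cells lose contractile actin fibres and change the matrix they secrete. A difference in a bulk culture can come from fewer cells of a type or from less RNA per cell, and the 2 cannot be told apart here.

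Both targeted genes were lower in D1D2KO adipocytes, and no D1D2KO sample reached a WT sample. The signals of Dgat1 were 9.36, 9.33 and 9.53 in WT and 8.26, 8.03 and 7.75 in D1D2KO, a difference of -1.39 (SE 0.11; limma, Benjamini-Hochberg adjusted p = 3.59e-07). Those of Dgat2 were 10.28, 9.86 and 10.53 in WT and 8.37, 8.62 and 8.66 in D1D2KO, a difference of -1.67 (SE 0.13; adjusted p = 3.53e-07). Where the probes lie relative to the deleted sequence is not given in the sources used here. Adipocyte markers were high in all 6 samples. Adipoq, which encodes adiponectin, lay between 11.34 and 11.85, and the fatty acid carrier Fabp4 between 12.30 and 12.71, while undifferentiated samples reached at most 5.46 and 7.31. Fibroblast markers were high as well, with a median signal over 19 genes of 10.14 to 10.28 in the 3 WT samples and 9.76 to 10.04 in the 3 D1D2KO samples. The WT samples had signal from Y-linked genes and the D1D2KO samples did not, with Eif2s3y at 7.89 to 8.13 against 2.89 to 3.06. Xist, which is made from the inactive X chromosome of female cells, was detected in both genotypes and was higher in D1D2KO (10.6 against 10.1 on average). The share of male cells and the genotype therefore cannot be told apart for any gene. On the main axis of a principal component analysis of autosomal genes, D1D2KO differentiated samples scored 40.3 to 44.3. WT differentiated samples scored 25.7, 30.8 and 34.4, and the lowest of these was replicate 2.

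Many genes differed between the genotypes by a little and few by much. Of 19103 autosomal genes 2629 passed the test (13.8%), 1212 higher in D1D2KO (6.34%) and 1417 lower (7.42%). A gene that passed is called changed below, and the threshold was an adjusted p of 0.05 without a minimum fold. The changed genes had a median size of 0.38 on the log2 scale, with quartiles of 0.32 and 0.48. A 2-fold difference was reached by 69 lower genes (0.361%) and by 7 higher genes (0.0366%). The 3 samples of each group did not overlap for 5923 genes (31.0%). Of the 2629 calls 976 (37.1%) held without each of the 6 samples in turn, 286 of them higher and 690 lower in D1D2KO. WT differentiated replicate 2 weighed most, and without it 1287 genes were called, 471 higher and 816 lower. Without D1D2KO differentiated replicate 1 or 3, 771 or 779 genes were called higher. With only the 6 differentiated samples in the fit 1137 were called. The direction moved with signal. Genes were put in order of mean signal and split into 5 equal groups. In the 2 groups of lowest signal 677 genes were called higher and 75 lower, whereas in the 2 groups of highest signal 259 were higher and 1070 lower. The median difference was largest, at 0.16, in the group next to the lowest, and was -0.10 in the group of highest signal. In undifferentiated cells the medians of these groups were 0.17 and -0.10. The part of this shift in the calls of single genes was not tested.

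**Figure D1:**
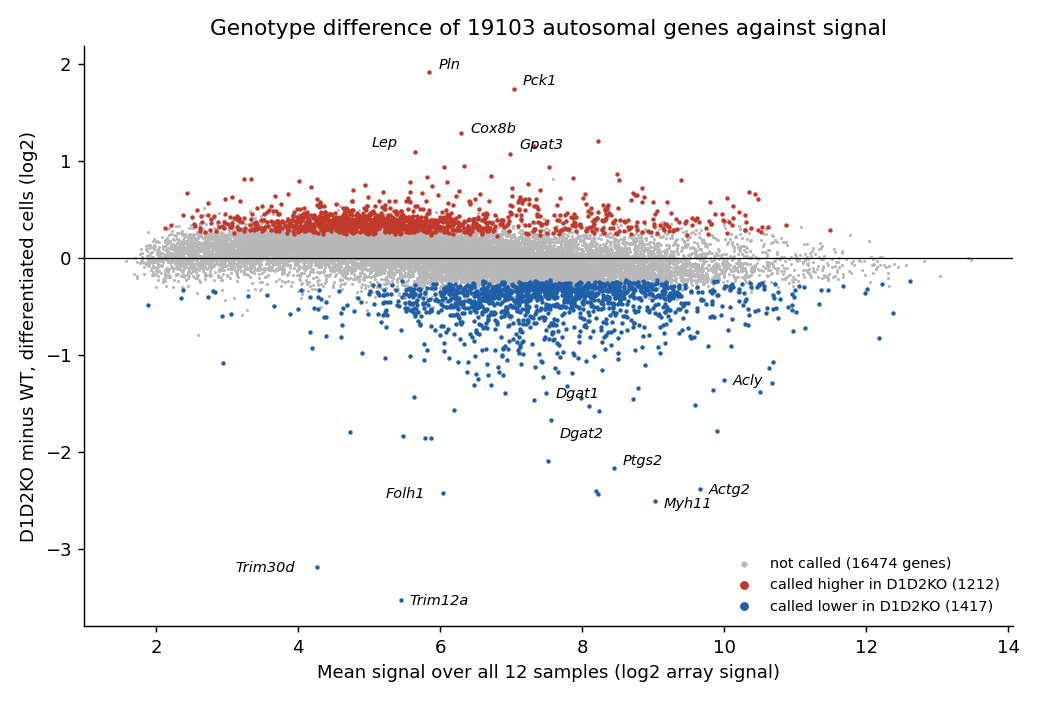
Each point is 1 of 19103 autosomal genes, with its mean log2 signal over all 12 samples on the horizontal axis and the D1D2KO minus WT difference in differentiated cells (log2) on the vertical axis; red points (1212) were called higher and blue points (1417) lower in D1D2KO. The large differences are mostly falls, from Trim12a at -3.52 to Ptgs2 at -2.17, while the largest rise is that of Pln at 1.91, and among genes of low signal red points outnumber blue ones.

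Smooth muscle and cytoskeletal genes had the largest median difference of the gene lists examined. Of 32 measured 29 were lower in D1D2KO adipocytes and 0 higher, against 7.42% of all genes called lower, with a median of -0.99 against 0.03 over all genes. Without any 1 sample, 28 or 29 were lower. Much of the list differed before differentiation too. In undifferentiated cells 20 of the 32 were called lower and 0 higher (median -0.51), against 3.59% of all genes called lower. Myh11, the smooth muscle myosin heavy chain, had signals of 9.93, 9.86 and 9.85 in WT and 7.35, 7.40 and 7.38 in D1D2KO. Its difference of -2.50 (SE 0.09; adjusted p = 3.19e-11) is a 5.66-fold lower signal. The groups stood far apart, with little spread within either of them. The actin-binding calponin Cnn1 gave 9.05, 9.28 and 8.96 in WT and 6.56, 6.87 and 6.57 in D1D2KO (-2.43, SE 0.12; adjusted p = 9.04e-10). The intermediate filament desmin, Des, gave 9.17, 9.38 and 9.18 in WT and 6.86, 6.97 and 6.70 in D1D2KO (-2.40, SE 0.13; adjusted p = 3.43e-09). In each of these 3 genes the lowest WT sample was more than 2 log2 units above the highest D1D2KO sample.

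The contractile actins and their partners followed the same order. Actg2, the enteric smooth muscle actin, had signals of 10.47, 10.80 and 10.48 in WT and 8.19, 8.19 and 8.23 in D1D2KO (-2.38, SE 0.11; adjusted p = 3.66e-10). Acta2, the actin of smooth muscle and myofibroblasts, was among the brightest genes of all samples and differed less, with 12.26, 12.32 and 12.24 in WT and 11.38, 11.46 and 11.51 in D1D2KO (-0.82, SE 0.08; adjusted p = 3.11e-06). The myosin light chain Myl9 gave 10.02, 10.19 and 9.99 in WT and 8.36, 8.32 and 8.15 in D1D2KO (-1.79, SE 0.09; adjusted p = 2.45e-09). None of these overlapped between genotypes. Near-identical actin genes may share probes, so the split between them is uncertain. Other falls were those of the actin bundler Tagln (-1.29), the tropomyosins Tpm2 (-1.46) and Tpm1 (-1.08), the actin cross-linker Actn1 (-0.98) and the myosin light chain kinase Mylk (-0.62). The regulator of G protein signalling Rgs5, also a pericyte marker, was lower by 3.63-fold, and the potassium channel subunit Kcnmb1 by 3.57-fold. The members that did not pass were Filip1l (-0.32), Mrvi1 (-0.24) and the pericyte proteoglycan Cspg4 (0.07).

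The serum response factor Srf, which drives many of these genes from a sequence called the CArG box, had signals of 6.74, 7.15 and 6.68 in WT and 6.18, 6.42 and 6.24 in D1D2KO (-0.58, SE 0.11; adjusted p = 0.00334). Its smooth muscle coactivator Myocd was at -0.47 (adjusted p = 0.0359), a call that was lost without any 1 of 5 samples, the exception being D1D2KO replicate 3, with adjusted p from 0.0538 to 0.131. Promoter windows of 250 bases before the gene start, from RefSeq on GRCm38.p6, were searched on both strands for the CArG box. Of the 29 lower members 24 had a window, and 4 of these held the motif (16.7%), against 1.62% of 27025 genes. The windows of 3 of them, the light chain Myl9, the calponin Cnn2 (-0.80) and Srf itself, are shown because they carry the motif next to a lower signal, with the box in capitals. They lie at chr2:156775214-156775463 (plus strand), chr10:79988350-79988599 (plus strand) and chr17:46556163-46556412 (minus strand).
Myl9: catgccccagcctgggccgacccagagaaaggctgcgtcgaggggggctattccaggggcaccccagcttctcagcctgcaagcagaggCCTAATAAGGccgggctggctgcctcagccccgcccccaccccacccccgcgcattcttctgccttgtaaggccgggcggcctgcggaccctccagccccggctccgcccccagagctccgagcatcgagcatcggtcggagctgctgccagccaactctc
Cnn2: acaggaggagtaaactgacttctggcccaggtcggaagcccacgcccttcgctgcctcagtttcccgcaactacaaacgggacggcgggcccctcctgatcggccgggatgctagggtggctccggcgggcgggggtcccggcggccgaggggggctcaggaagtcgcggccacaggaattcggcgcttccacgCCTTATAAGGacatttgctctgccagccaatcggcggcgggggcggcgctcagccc
Srf: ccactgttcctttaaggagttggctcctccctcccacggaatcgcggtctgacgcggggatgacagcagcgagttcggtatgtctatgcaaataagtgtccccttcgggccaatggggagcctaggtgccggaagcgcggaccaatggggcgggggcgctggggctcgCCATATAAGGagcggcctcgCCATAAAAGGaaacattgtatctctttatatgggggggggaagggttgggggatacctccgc
The box starts 161 bases before the start of Myl9 and 56 before that of Cnn2, and Srf has 2 boxes, 82 and 62 bases before its start. A match is a string of letters, and binding was not measured. Many genes of the list are driven from this box, and uncalled members were not searched. The share above that of all genes therefore says nothing about the difference between the genotypes. That the other members lacked the letters in this window says nothing about the factor.

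**Figure D2:**
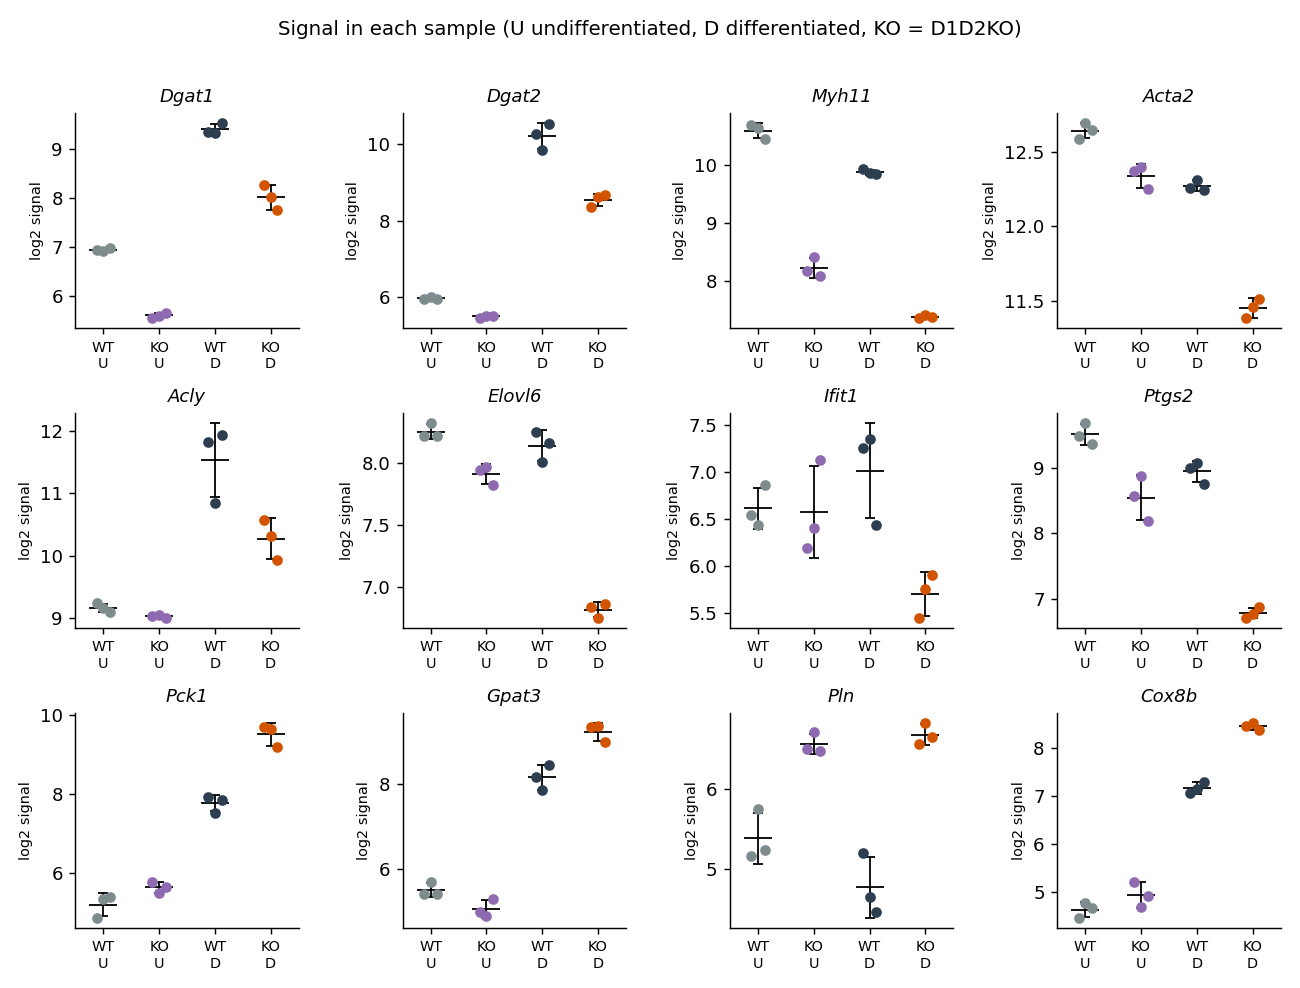
Log2 signal of 12 genes in each of the 12 samples, with the genotype and state on the horizontal axis (U undifferentiated, D differentiated, KO for D1D2KO), and the mean with the SD over 3 samples as the black bar. In differentiated cells the D1D2KO points of Dgat1, Dgat2, Myh11, Acta2, Acly, Elovl6, Ifit1 and Ptgs2 lie below all WT points, and those of Pck1, Gpat3, Pln and Cox8b lie above them.

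Many genes of the matrix were lower too. Of 44 matricellular and elastic fibre genes 24 were lower and 2 higher (median -0.29), and 18 to 22 were lower without any 1 sample and 15 with only the 6 differentiated samples in the fit. The connective tissue growth factor gene Ccn2 had signals of 10.55, 10.89 and 10.34 in WT and 8.99, 9.26 and 9.38 in D1D2KO (-1.38, SE 0.13; adjusted p = 2.38e-06). The adhesion-modulating tenascin Tnc gave 9.93, 10.26 and 9.75 in WT and 8.56, 8.59 and 8.71 in D1D2KO (-1.37, SE 0.11; adjusted p = 5.95e-07). All D1D2KO samples of both genes lay below all WT samples, with a gap wider than the spread within either group. Ccn1, a close relative of Ccn2, differed by -0.91, the thrombospondin Thbs4 by -0.87, the fibulin family gene Efemp1 by -0.83 and fibronectin, Fn1, by -0.36. Sparc, a collagen-binding glycoprotein, was at -0.08 and did not pass (adjusted p = 0.487). Of 30 integrins and laminins 10 were lower and 3 higher, or 1 higher without D1D2KO replicate 1 or WT replicate 2, and 6 lower and 1 higher with only the 6 samples. Among them the fibronectin receptor chain Itga5 was lowest, with 8.51, 8.67 and 8.31 in WT and 7.01, 7.19 and 6.96 in D1D2KO (-1.45, SE 0.11; adjusted p = 3.21e-07). Of 32 proteases and inhibitors of the matrix 12 were lower and 2 higher, or 0 higher without D1D2KO replicate 1 or WT replicate 2. The lower ones include stromelysin Mmp3 (-0.77) and the urokinase receptor Plaur (-0.69). The 35 collagens split, 7 lower and 4 higher, with a median of 0.07, and without any 1 sample 0 to 3 were higher and 5 or 6 lower. With only the 6 samples 4 were lower and 1 higher. Among them Col12a1 was at -0.75 and Col5a2 at -0.63, while the bright fibrillar chain Col1a2 (-0.29) and Col6a1 (0.08) did not pass.

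Fibroblast markers stood beside these genes, and the list shares Fn1 and Col1a2 with them. All 19 measured had a difference below 0 and 9 were called lower (47.4%, median -0.28), against 7.42% of all genes. The count was 4 with only the 6 differentiated samples in the fit. The list had high signal, and of the 3821 genes of highest signal 559 were called lower, at a median of -0.10. The part of that shift in the list was not tested. The surface glycoprotein Thy1 had signals of 9.45, 9.68 and 9.24 in WT and 8.81, 8.61 and 8.72 in D1D2KO (-0.74, SE 0.10; adjusted p = 0.000155), and the platelet-derived growth factor receptors Pdgfra and Pdgfrb were at -0.52 and -0.41. The intermediate filament gene Vim was at -0.21 and did not pass (adjusted p = 0.0648). The part of unconverted fibroblasts in the smooth muscle and matrix differences was not tested. Cell cycle genes were lower in 17 of 47 cases and higher in 3 (median -0.25). The count of lower genes was 7 without WT replicate 2, 12 to 18 without any other sample and 7 with only the 6 samples. The topoisomerase Top2a was at -0.40 and the cell cycle inhibitor Cdkn1c, which was higher, at 0.68. In undifferentiated cells 15 of the 47 cell cycle genes were lower and 0 higher (median -0.25), against 3.59% and 4.43% of all genes. A test of the difference between the states called 1 of the 47, with a higher value in differentiated cells.

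Of 48 ligands, traps and targets of the TGF-beta family 24 were lower and 2 higher (median -0.25), and 18 to 23 were lower without any 1 sample. Among the ligands the activin chain Inhba had signals of 7.62, 8.20 and 7.67 in WT and 6.69, 6.79 and 7.09 in D1D2KO (-0.98, SE 0.14; adjusted p = 0.000279), and Tgfb3 gave 8.75, 8.68 and 8.75 in WT and 7.95, 7.98 and 7.51 in D1D2KO (-0.92, SE 0.11; adjusted p = 6.16e-05). Among the extracellular antagonists the BMP binder gremlin, Grem1, gave 7.90, 8.24 and 8.07 in WT and 6.45, 5.65 and 5.83 in D1D2KO (-2.10, SE 0.15; adjusted p = 1.71e-07). The groups did not overlap in any of these, and D1D2KO replicate 1 was the highest of its group for Grem1. The activin binder follistatin, Fst, was at -0.65. Among genes induced by these pathways the inhibitory Smad7 was at -0.52 and the helix-loop-helix factor Id3 at -0.59. The 2 higher members were the receptor Acvr1c (0.66), which adipocytes express strongly, and Bmp5 (0.38). The receptors Bmpr1a (-0.14) and Tgfbr3 (-0.19) did not pass. Of 43 genes of other growth factor systems 13 were lower and 3 higher (8 and 2 with only the 6 samples). Placental growth factor, Pgf, was lower by 2.71-fold (-1.44), the carrier Igfbp2 by 2.53-fold (-1.34) and the EGF receptor ligand Hbegf by 1.86-fold (-0.90). Met, the receptor of hepatocyte growth factor, was higher, with 7.56, 7.23 and 7.79 in WT and 8.62, 8.53 and 8.24 in D1D2KO (0.93, SE 0.12; adjusted p = 0.000105).

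**Figure D3:**
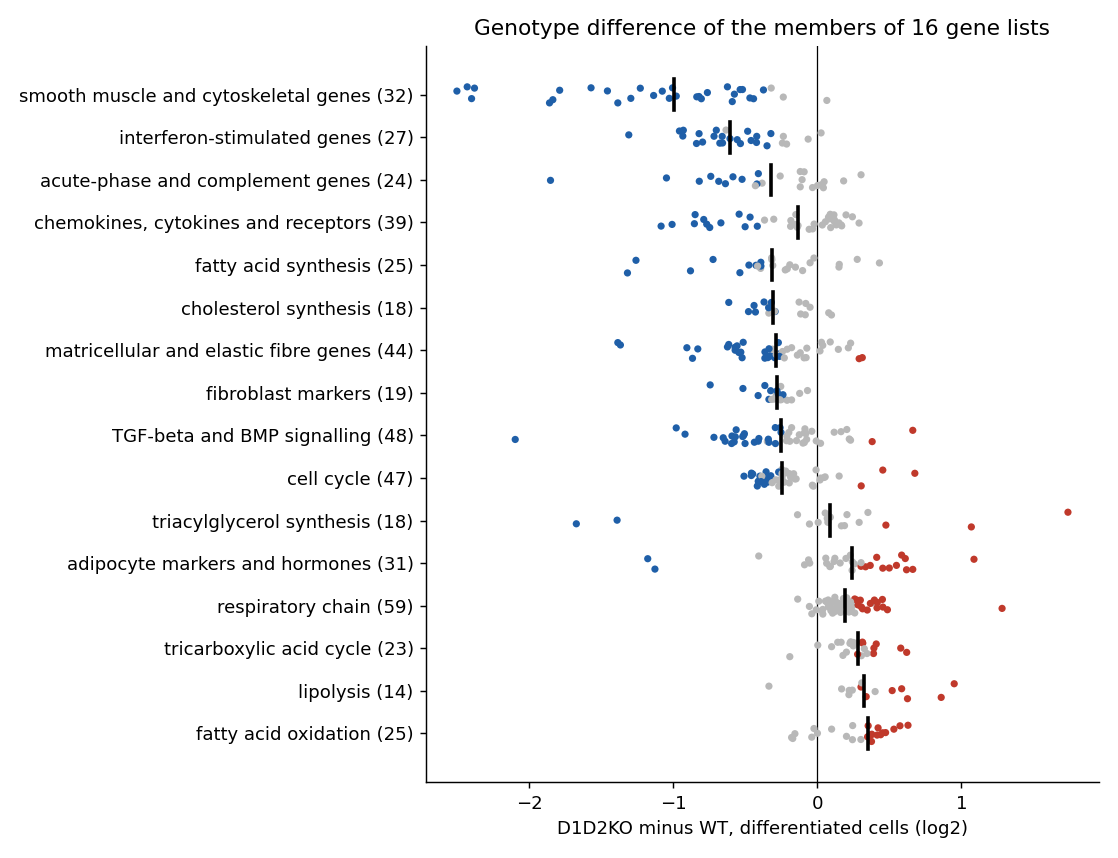
The D1D2KO minus WT difference in differentiated cells, on the log2 scale, of every measured autosomal member of 16 gene lists, with the number of members in brackets and the list median as a black line; blue members were called lower, red ones higher and grey ones neither. The smooth muscle list lies furthest to the left with a median of -0.99, followed by the interferon-stimulated genes at -0.61, and fatty acid oxidation lies furthest to the right at 0.35.

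Interferon-stimulated genes were lower in D1D2KO adipocytes in 21 of 27 cases and higher in 0, with a median of -0.61, and 18 to 22 were lower without any 1 sample. Ifit1, an antiviral protein that binds foreign RNA, had signals of 7.26, 7.35 and 6.43 in WT and 5.45, 5.75 and 5.91 in D1D2KO (-1.31, SE 0.23; adjusted p = 0.00164). Its relative Ifit3 gave 6.34, 6.67 and 5.83 in WT and 5.08, 5.39 and 5.50 in D1D2KO (-0.96, SE 0.19; adjusted p = 0.00372). WT replicate 3 was the lowest of its group in both genes, and still above every D1D2KO sample. The guanylate-binding protein Gbp3 gave 7.58, 7.57 and 7.36 in WT and 6.49, 6.65 and 6.59 in D1D2KO (-0.93, SE 0.11; adjusted p = 3.28e-05) and the groups were well separated. Members of the Gbp and Ifit families are alike in sequence, and how far their probes read each other is not known here. The transcription factors of the response were lower too, with Irf7 at -0.82, Stat2 at -0.61 and Irf9 at -0.42. So were the RNA sensor Ifih1 (-0.70), the membrane GTPase Mx2 (-0.93), the synthetase-like Oasl2 (-0.84) and Usp18 (-0.80), a brake on interferon signalling. The chemokine Cxcl10 (-0.63, adjusted p = 0.0675) and Ifi27 (0.03, adjusted p = 0.854) did not pass. In undifferentiated cells, where 8.02% of all genes were called (4.43% higher, 3.59% lower), 0 of the 27 were called in either direction, at a median difference of -0.01 (limma; 1 at an unadjusted p below 0.05). A test of the difference between the states, which called 1.47% of all genes (0.733% lower), called 6 of the 27, all lower in differentiated cells. That count was 2 to 5 without any 1 of 11 samples and 14 without WT differentiated replicate 3.

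The core of the interferon-stimulated response element, read as GAAA, any 2 bases and GAAA again, was searched in the same promoter windows on both strands. Of the 21 lower members 19 had a window, and 8 of these held it (42.1%), against 3.46% of 27025 genes. The windows of Ifit1, Ifit3 and Gbp3, whose values are given above, carry 2 matches each, in capitals, and show how closely they can lie. They come from chr19:34640639-34640888 (plus strand), chr19:34583279-34583528 (plus strand) and chr3:142559794-142560043 (plus strand).
Ifit1: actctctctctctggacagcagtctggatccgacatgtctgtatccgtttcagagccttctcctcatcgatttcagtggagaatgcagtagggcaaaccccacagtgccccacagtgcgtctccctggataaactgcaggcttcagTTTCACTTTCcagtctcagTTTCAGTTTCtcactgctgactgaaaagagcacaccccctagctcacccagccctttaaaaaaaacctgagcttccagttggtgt
Ifit3: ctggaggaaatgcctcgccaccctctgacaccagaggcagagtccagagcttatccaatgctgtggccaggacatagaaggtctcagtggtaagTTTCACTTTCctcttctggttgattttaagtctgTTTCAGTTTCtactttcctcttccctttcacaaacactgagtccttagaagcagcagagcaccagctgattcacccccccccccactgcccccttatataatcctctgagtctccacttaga
Gbp3: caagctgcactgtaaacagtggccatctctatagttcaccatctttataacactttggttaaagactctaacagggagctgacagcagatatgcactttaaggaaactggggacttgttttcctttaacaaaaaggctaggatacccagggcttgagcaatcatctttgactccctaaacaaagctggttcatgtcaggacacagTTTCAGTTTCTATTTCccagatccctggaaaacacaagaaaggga
The matches start 104 and 85 bases before the start of Ifit1, 156 and 122 before that of Ifit3, and 45 and 39 before that of Gbp3, where they overlap. Binding of a factor was not measured. The members were listed because they respond to interferon, and uncalled members were not searched. The share above that of all genes therefore says nothing about the difference between the genotypes.

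Some inflammatory mediators were lower as well. Of 39 chemokines, cytokines and receptors 12 were lower (30.8%) and 0 higher. Of 24 acute-phase and complement genes 10 were lower (41.7%) and 0 higher. Over all genes 7.42% were lower and 6.34% higher. Ptgs2, the inducible cyclooxygenase that starts prostaglandin synthesis, had signals of 9.00, 9.08 and 8.76 in WT and 6.71, 6.77 and 6.87 in D1D2KO (-2.17, SE 0.14; adjusted p = 4.24e-08). The lectin Reg3g gave 7.08, 7.69 and 7.12 in WT and 5.15, 5.61 and 5.58 in D1D2KO (-1.85, SE 0.15; adjusted p = 9.94e-07). The cytokine Il6 gave 3.16, 4.31 and 3.38 in WT and 2.53, 2.43 and 2.64 in D1D2KO (-1.08, SE 0.21; adjusted p = 0.00336), low signals throughout, and WT replicate 2 stood above the other 2 of its group. That sample was also the highest for the chemokine Ccl2 (-0.79), the serum amyloid Saa3 (-1.05), the alarmin Il33 (-0.85) and the pentraxin Ptx3 (-0.82), and each of these calls held without it. Phospholipase Pla2g4a, which frees arachidonic acid for the cyclooxygenase, was at -0.67, and the prostaglandin F receptor Ptgfr at -0.56. Haptoglobin, Hp, was at 0.04 and did not pass (adjusted p = 0.838). Macrophage markers were lower in 3 of 24 cases (12.5%) and higher in 0 (median -0.09), against 7.42% of all genes called lower. In the 2 groups of highest signal 511 of 3819 and 559 of 3821 genes were lower. The macrophage count was 1 without D1D2KO replicate 1 or 2 or WT replicate 2, and with only the 6 samples. The integrin chain Itgam was at -0.68, while lysozyme Lyz2 (0.02) and Cd68 (-0.20) did not pass. The median macrophage signal was 7.77 to 8.11 in WT samples and 7.47 to 7.89 in D1D2KO samples, and its part in the interferon and cytokine values was not tested. Immediate-early genes were lower in 7 of 26 cases (26.9%), among them Ier3 (-0.86) and Myc (-0.54). In undifferentiated cells 3 of the 39 chemokines, cytokines and receptors were lower and 4 higher, and 3 of the 24 acute-phase and complement genes lower and 1 higher. Ptgs2 was already lower there (limma, adjusted p = 0.000514), and its difference between the states was -1.20 (adjusted p = 0.00559). Pla2g4a and Itgam were called there too (adjusted p = 0.00106 and 0.000948).

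Genes that make fatty acids were lower in 9 of 25 cases and higher in 0, with a median of -0.32. The 9 lower genes kept their call without each sample in turn, and 15 were lower without WT replicate 2. The elongase Elovl6 had signals of 8.25, 8.01 and 8.16 in WT and 6.85, 6.75 and 6.87 in D1D2KO (-1.32, SE 0.08; adjusted p = 4.01e-08). The citrate lyase Acly, which supplies cytosolic acetyl-CoA, gave 11.82, 10.84 and 11.93 in WT and 10.57, 10.31 and 9.93 in D1D2KO (-1.26, SE 0.21; adjusted p = 0.000912). WT replicate 2 was about 1 log2 unit below the other WT samples for Acly, and still above every D1D2KO sample. Of the desaturases Fads2 gave 9.36, 9.48 and 9.49 in WT and 8.58, 8.58 and 8.53 in D1D2KO (-0.88, SE 0.08; adjusted p = 1.48e-06), followed by Scd2 (-0.72), Scd1 (-0.54), Fads1 (-0.39) and Fads3 (-0.39). Scd1 was among the brightest genes of the array in both genotypes. The elongase Elovl5 was at -0.47. The lipogenic transcription factor Srebf1 gave 9.55, 9.45 and 9.55 in WT and 9.31, 9.05 and 8.90 in D1D2KO (-0.43, SE 0.09; adjusted p = 0.00843).

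The central enzymes of the pathway did not pass. Fatty acid synthase, Fasn, had signals of 11.38, 10.94 and 11.36 in WT and 11.14, 11.02 and 10.85 in D1D2KO (-0.22, adjusted p = 0.178), and acetyl-CoA carboxylase, Acaca, gave 11.34, 10.58 and 11.28 in WT and 10.92, 10.83 and 10.51 in D1D2KO (-0.31, adjusted p = 0.179). In both, WT replicate 2 lay among the D1D2KO samples. The carbohydrate-responsive factor Mlxipl was at -0.10 and Thrsp at -0.39 (adjusted p = 0.203). Genes of cholesterol synthesis were lower in 8 of 18 cases and higher in 0 (median -0.31). The count was 5 without WT replicate 3, and 4 with only the 6 differentiated samples in the fit. Idi1, the isopentenyl isomerase, gave 9.22, 9.38 and 9.19 in WT and 8.51, 8.74 and 8.70 in D1D2KO (-0.61, SE 0.09; adjusted p = 0.000403), and the farnesyl synthase Fdps was at -0.48 and the sterol carrier Stard4 at -0.43. Hmgcs1, which makes the precursor of mevalonate, was at 0.10 and Sqle at -0.13, and neither passed.

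In triacylglycerol synthesis the enzymes around the missing step were higher or did not pass. Of 18 genes 3 were higher and 2, Dgat1 and Dgat2, lower, with a median of 0.09. Pck1, which makes precursors of glycerol 3-phosphate, had signals of 7.93, 7.54 and 7.86 in WT and 9.71, 9.65 and 9.19 in D1D2KO (1.74, SE 0.15; adjusted p = 1.85e-06). The glycerol phosphate acyltransferase Gpat3, which takes the entry step in adipocytes, gave 8.16, 7.86 and 8.43 in WT and 9.32, 9.35 and 8.98 in D1D2KO (1.07, SE 0.14; adjusted p = 0.00015). Every D1D2KO sample of both genes was above every WT sample. Agpat3, an acyltransferase of the next step, was higher by 1.39-fold (0.48). The abundant Agpat2 (0.29, adjusted p = 0.106), Gpam (-0.05, adjusted p = 0.73) and Lpin1 (0.35, adjusted p = 0.132) did not pass. Phospholipid synthesis, which draws on the same diacylglycerol, had 1 of 17 genes higher and 0 lower, and diacylglycerol kinases and protein kinases C had 1 of 18 higher and 0 lower, counts below the share over all genes. In ceramide synthesis the glucosyltransferase Ugcg was at -0.79.

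**Figure D4:**
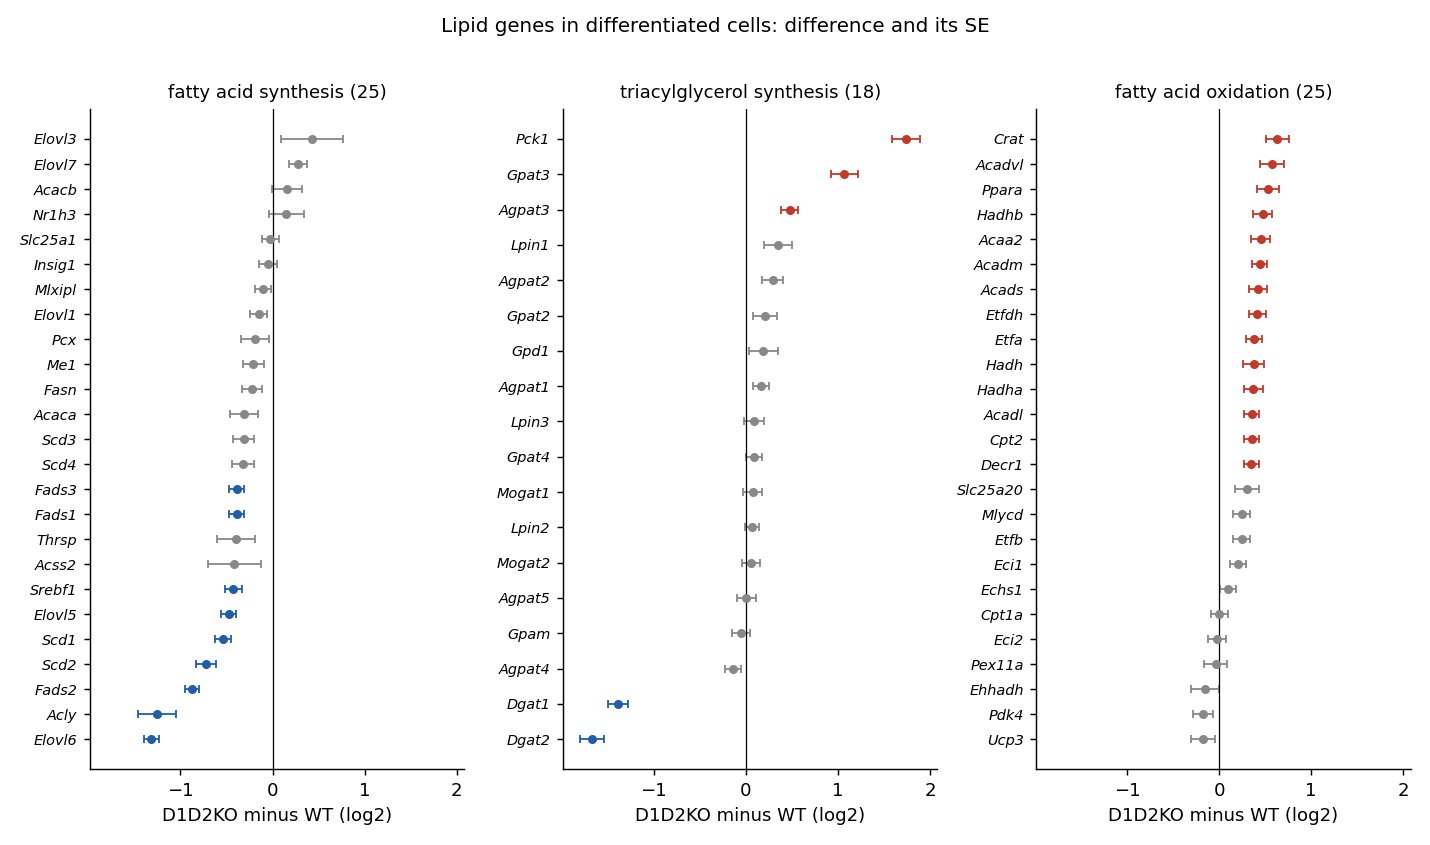
The D1D2KO minus WT difference in differentiated cells, on the log2 scale, with its SE from the limma fit, for every measured gene of fatty acid synthesis (25), triacylglycerol synthesis (18) and fatty acid oxidation (25), in blue where called lower, red where called higher and grey otherwise. The lower genes of synthesis end at Elovl6 (-1.32), and Dgat1 and Dgat2 stand apart from the other genes of triacylglycerol synthesis. Of the genes of oxidation 20 lie to the right of 0, and 14 of these were called higher.

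Adipocyte markers and genes of lipolysis and its regulation were higher in part, mostly by small amounts, and most of these calls depended on 1 sample. Of 31 adipocyte markers 12 were higher and 2 lower (median 0.24). The higher count was 3 without WT replicate 2, 4 and 5 without D1D2KO replicates 2 and 1, and 7 without WT replicate 1 or with only the 6 samples. Leptin, Lep, had signals of 6.40, 6.51 and 6.98 in WT and 7.71, 7.72 and 7.72 in D1D2KO (1.09, SE 0.12; adjusted p = 2.01e-05), a 2.13-fold higher signal with 3 nearly equal D1D2KO values. Adipoq gave 11.34, 11.40 and 11.35 in WT and 11.85, 11.84 and 11.64 in D1D2KO (0.41, SE 0.12; adjusted p = 0.0295), and its call was lost without any 1 of the samples other than D1D2KO replicate 3 (adjusted p from 0.0572 to 0.084). The droplet coat protein Plin1 gave 10.59, 10.33 and 10.63 in WT and 11.29, 11.15 and 10.76 in D1D2KO (0.55, SE 0.13; adjusted p = 0.0111), a call lost without D1D2KO replicate 1 (adjusted p = 0.0508) or WT replicate 2 (0.0622). Fabp4 did not pass (0.26, adjusted p = 0.145). The 2 lower members were the chemoattractant chemerin, Rarres2 (-1.13), and the imprinted gene Nnat (-1.18). PPARγ itself, Pparg, had signals of 10.36, 10.39 and 10.62 in WT and 10.53, 10.65 and 10.48 in D1D2KO and did not pass (0.10, adjusted p = 0.532), whereas Cebpa gave 9.11, 9.34 and 9.11 in WT and 9.68, 9.57 and 9.69 in D1D2KO (0.46, SE 0.10; adjusted p = 0.00658). Of 14 lipolysis genes 7 were higher and 0 lower (median 0.32), and 4 were higher without D1D2KO replicate 1, D1D2KO replicate 2 or WT replicate 2. The carboxylesterase Ces1d was at 0.95, the regulatory subunit of protein kinase A Prkar2b at 0.86 and the insulin-responsive phosphodiesterase Pde3b at 0.52. The hormone-sensitive lipase Lipe was at 0.24 and did not pass.

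Many genes that burn fatty acids were higher. Of 25 genes of fatty acid oxidation 14 were higher and 0 lower (median 0.35), and 10 to 17 were higher without any 1 sample. The carnitine acetyltransferase Crat had signals of 9.81, 9.42 and 9.93 in WT and 10.54, 10.41 and 10.09 in D1D2KO (0.63, SE 0.12; adjusted p = 0.0037). The medium-chain dehydrogenase Acadm gave 11.28, 11.15 and 11.31 in WT and 11.68, 11.76 and 11.62 in D1D2KO (0.44, SE 0.08; adjusted p = 0.00233), and the thiolase subunit Hadhb gave 10.93, 10.69 and 11.12 in WT and 11.46, 11.49 and 11.21 in D1D2KO (0.47, SE 0.10; adjusted p = 0.00769). The groups did not overlap, though the gap was small for Crat and Hadhb, where WT replicate 3 lay just below D1D2KO replicate 3. The nuclear receptor Ppara, a driver of these genes, was at 0.53, and the coactivators Ppargc1b and Ppargc1a were at 0.78 and 0.62. The carnitine palmitoyltransferase Cpt1a, which admits fatty acids to mitochondria, was at 0.00 (adjusted p = 0.995) and the kinase Pdk4 at -0.17, and neither passed. In undifferentiated cells 0 of the 25 were called (limma; 4 at an unadjusted p below 0.05).

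Some mitochondrial genes beyond fatty acid oxidation were higher too. Of 59 genes of the respiratory chain 15 were higher and 0 lower, and 55 had a difference above 0 (median 0.19). The count was 5 without WT replicate 2, 7 without D1D2KO replicate 1 or 2, 8 without WT replicate 1, and 4 with only the 6 differentiated samples in the fit. Cox8b, a cytochrome oxidase subunit of muscle and brown fat, led them with 7.05, 7.14 and 7.29 in WT and 8.45, 8.51 and 8.37 in D1D2KO (1.28, SE 0.12; adjusted p = 3.11e-06), and cytochrome c1, Cyc1, was at 0.49. Of 23 genes of the tricarboxylic acid cycle 8 were higher and 0 lower, or 3 without D1D2KO replicate 2 or WT replicate 2, 4 without D1D2KO replicate 1, 2 with only the 6 samples, and 13 after quantile normalization. Idh3a, a subunit of isocitrate dehydrogenase, was at 0.62, and citrate synthase, Cs, at 0.31 did not pass (adjusted p = 0.0522). The mitochondrial ribosome had 1 of 67 genes higher and 1 lower (8 and 0 after quantile normalization). Of 20 brown and beige adipocyte genes 7 were higher and 0 lower, with 2 higher without WT replicate 2, 3 without D1D2KO replicate 1 or 3, 3 with only the 6 samples and 4 after quantile normalization. Ucp1, the uncoupling protein of brown fat, had low signals of 4.07, 3.87 and 4.06 in WT and 4.39, 4.33 and 4.23 in D1D2KO (0.32; adjusted p = 0.0371), at about the lower quartile of the probe sets of these arrays, and its call was lost without D1D2KO replicate 1 (adjusted p = 0.105), D1D2KO replicate 2 (0.0817) or WT replicate 2 (0.143). Branched-chain amino acid transaminases differed in sign, with the mitochondrial Bcat2 at 0.50 and the cytosolic Bcat1 at -0.60.

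Other rises came from striated muscle genes. Phospholamban, Pln, a regulator of the calcium pump in heart, had the largest rise, with 5.19, 4.64 and 4.46 in WT and 6.56, 6.82 and 6.65 in D1D2KO (1.91, SE 0.17; adjusted p = 1.69e-06). Cardiac actin, Actc1, gave 7.08, 7.55 and 7.15 in WT and 8.26, 8.57 and 8.57 in D1D2KO (1.20, SE 0.14; adjusted p = 3.06e-05), and the atrial myosin Myh6 gave 5.42, 5.27 and 5.39 in WT and 6.30, 6.33 and 6.28 in D1D2KO (0.94, SE 0.09; adjusted p = 5.17e-06). These 3 were higher in D1D2KO cells in the undifferentiated state too, by 1.18, 1.22 and 1.26. Of 40 cardiac and skeletal muscle genes 9 were higher (22.5%) and 4 lower (10.0%), against 6.34% and 7.42% of all genes. The lower count was 2 without D1D2KO replicate 1 or with only the 6 samples. Des and the natriuretic peptide Nppb (-0.69) were among the lower ones, while troponin Tnnt2 (0.12) and the cardiac factor Gata4 (0.04) did not pass. In undifferentiated cells 12 of the 40 were higher and 2 lower. The list had low signal (sample medians of 5.33 to 5.79) and a median difference of 0.18. All genes with means of 4.29 to 5.48 had a median of 0.16, and those of 5.48 to 6.63 one of 0.04. The part of that shift in the list was not tested. Tmem182, a membrane protein of muscle and fat, was at 1.15, arginase, Arg1, at 0.84, the haem carrier hemopexin, Hpx, at 0.84 and the inhibitory G protein subunit Gnai1 at 0.82. Of 27 genes of retinoid metabolism and its targets 6 were lower (22.2%) and 2 higher (7.41%). The retinal dehydrogenase Aldh1a1 was lower (-0.76), and the alcohol dehydrogenase Adh1 (0.61) and the retinol saturase Retsat (0.59) were higher. Of 17 epithelial markers 7 were lower and 1 higher, and 6 or 7 were lower and 0 to 2 higher without any 1 sample, with the keratin Krt19 at -0.99 and the mesothelial genes Msln and Wt1 at -0.75 and -0.45. Of 17 endothelial and pericyte markers 4 were lower (23.5%) and 2 higher (11.8%), or 0 higher without WT replicate 2. Of 19 neural and glial markers 4 were lower (21.1%, 2 without D1D2KO replicate 2 or with only the 6 samples) and 1 higher (5.26%). The epithelial shares were 41.2% lower and 5.88% higher, against 7.42% and 6.34% of all genes. In undifferentiated cells the lower and higher counts were 6 and 0 for the retinoid list and 1 and 1 for the epithelial list. They were 4 and 2 for the endothelial and pericyte list and 1 and 2 for the neural and glial list.

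The same genotype comparison in undifferentiated cells shares no samples with this one and called 1532 genes (8.02%), 847 higher (4.43%) and 685 lower (3.59%). That count depended on single samples. It was 324, 374, 540, 564 and 986 without WT replicate 2, D1D2KO replicate 3, WT replicate 1, D1D2KO replicate 1 and D1D2KO replicate 2 of the undifferentiated samples. Over all 19103 genes the differences of the 2 states correlated at r = 0.59 across genes, which share the arrays' signal-dependent shift and are not independent. Of the genes lower in D1D2KO adipocytes 337 (23.8%) were lower before differentiation, and they were 49.2% of those lower before. Of the higher genes 223 (18.4%) were higher before, and they were 26.3% of those higher before. The ubiquitin ligase genes Trim12a and Trim30d had the largest measured falls in both states. The signals of Trim12a in adipocytes were 7.07, 7.35 and 6.95 in WT and 3.52, 3.65 and 3.63 in D1D2KO (-3.52, SE 0.12; adjusted p = 7.46e-12), and the difference before was -3.72. The D1D2KO signals of Trim12a and Trim30d in both states lie below the lower quartile of the probe sets of every array. Whether they are above background is not known here, so the true falls may be larger and the 2 states cannot be ranked. Myh11 (-2.39 before), Grem1 (-2.38), Rgs5 (-1.69), Kcnmb1 (-1.74) and Synpo2 (-1.55), an actin-bundling partner, also had much of their adipocyte value before differentiation, and Stard10 (0.55; 0.81 before) and Fah (0.66; 0.51 before) were higher in both.

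A test of the difference between the states called 281 of 19103 genes (1.47%), 141 with a higher value in differentiated cells (0.738%) and 140 with a lower one (0.733%). That count ran from 154 without WT undifferentiated replicate 1 to 437 without WT differentiated replicate 3. It was 164 to 192 without any other undifferentiated sample, and 179 and 185 without D1D2KO differentiated replicates 1 and 2. Of the smooth muscle list 13 of 32 were called (10 to 13 without any 1 sample), all with a larger fall in adipocytes, among them Actg2 (-0.90; adjusted p = 0.00584) and Myl9 (-0.88; adjusted p = 0.00271). Folh1, a peptidase, stood furthest out, with 8.50, 7.99 and 8.82 in WT and 6.14, 6.28 and 5.63 in D1D2KO (-2.42, SE 0.18; adjusted p = 1.94e-07) against 0.14 before, a difference between the states of -2.55 (adjusted p = 0.000103). Dgat2 (-1.20; adjusted p = 0.00271), Tnc (-1.22; adjusted p = 0.000762) and Pgf (-1.10; adjusted p = 0.000473) fell further in adipocytes. In the other direction the oxygen sensor Egln3 was at 0.35 in adipocytes and -1.47 before, a difference of 1.82 (adjusted p = 0.000103). Bnip3, which acts in mitophagy, went from -1.25 to 0.30, and Fabp4 from -1.20 to 0.26, so that a gap present before differentiation was not called in adipocytes. Adipoq went from -0.97 to 0.41 (adjusted p of the difference = 0.000501). Its undifferentiated D1D2KO mean was no higher than about the lower quartile of gene signals (4.41 to 4.68 across arrays). Whether that is above background is not known here, so the size of the difference before differentiation is uncertain. Of 34 targets of the hypoxia-inducible factor 19 were lower before differentiation, against 6 lower and 2 higher in adipocytes (3 and 1 with only the 6 samples), and for 8 the difference between the states was called. The 19 became 10 without WT undifferentiated replicate 2 and 11 without D1D2KO undifferentiated replicate 3, and the 8 ranged from 3 to 10 without any 1 sample. Gpat3 and Prkar2b moved from -0.45 and -0.49 to 1.07 and 0.86 (adjusted p of the difference = 0.00103 and 0.000473).

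**Figure D5:**
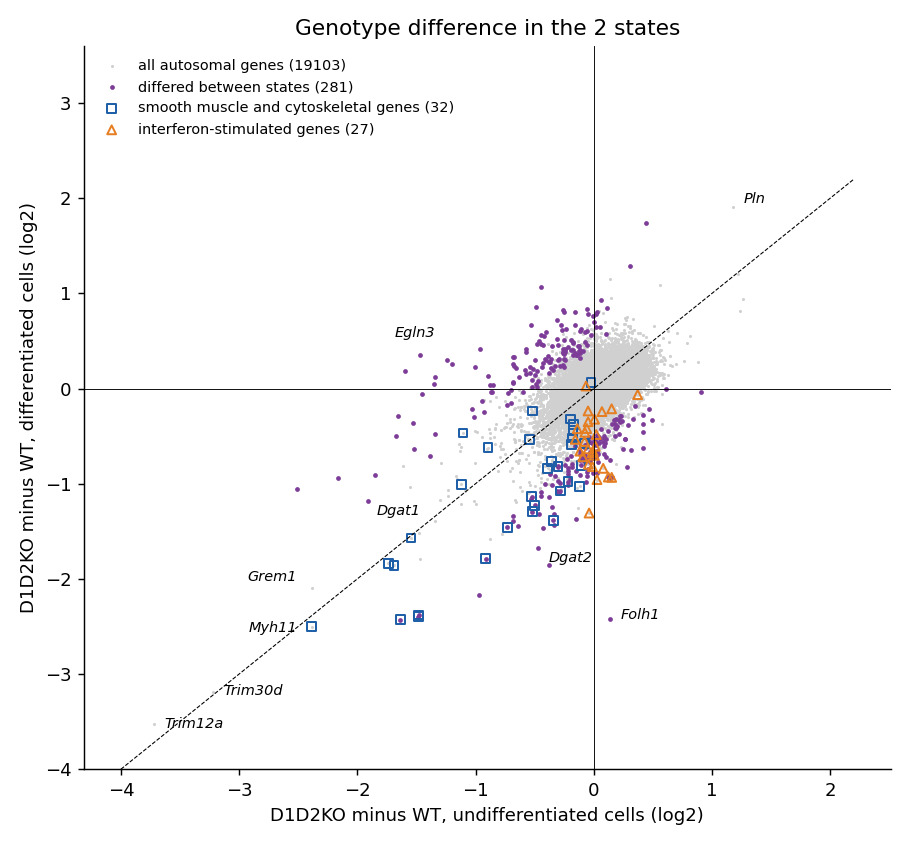
The D1D2KO minus WT difference of 19103 autosomal genes in undifferentiated (horizontal axis) and differentiated cells (vertical axis), both on the log2 scale, with a dashed line where the 2 are equal; purple points (281) are genes whose difference between the states was called, blue squares the 32 smooth muscle genes and orange triangles the 27 interferon-stimulated genes. Trim12a, Trim30d and Myh11 lie near the dashed line, Folh1 lies at -2.42 in differentiated and 0.14 in undifferentiated cells, and most interferon-stimulated genes lie near 0 on the horizontal axis and below 0 on the vertical axis.

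Changed genes were spread over all autosomes, from 11.7% of the measured genes of chromosome 2 to 17.4% on chromosomes 16 and 18. Of the 100 measured genes nearest Dgat1 on chromosome 15, 16 were called, and of those nearest Dgat2 on chromosome 7, 22 were called (22.0%), against 13.8% over all genes. Of these 22, 16 were lower, and 10 of the 100 were called in the same direction in undifferentiated cells. Over all 19103 genes 337 were called lower and 223 higher in both states. In undifferentiated cells 16 of the 100 genes nearest Dgat2 and 4 of the 100 nearest Dgat1 were called, against 8.02% over all genes. Kctd14, Lrrc32 and P4ha3 were the leading neighbours, at -1.08, -0.95 and -0.89. Folh1, Trim12a and Trim30d lie on the same chromosome, 59 genes before and 162 and 165 genes after Dgat2 in the order of measured genes. Trim12a and Trim30d belong to a cluster of similar genes, so which of them the probes read is uncertain.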

How the data were processed

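RNA of 12 samples, 3 in each of 4 groups, was hybridised to single-colour arrays that read whole transcripts. The table deposited by the authors holds log2 signals of 35556 probe sets. Its background correction, summarisation and normalization are not given in the sources used here, and base 2 was taken from the range of the values (1.15 to 14.17). Column medians lay between 5.61 and 5.69, so the arrays had been brought to a common level. Scanner files were not used here, so signal over background is unknown, and the number of samples limits the precision.

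For each gene the single-gene probe set with the highest mean signal was kept. The 4 group means were estimated together from all 12 samples (limma 3.58.1, R 4.3.3), with two-sided moderated tests from eBayes. P-values were adjusted by Benjamini-Hochberg over all 19938 genes, with 0.05 as the threshold, and the fit was tested on simulated data. Genes on X (739), on Y (9) and of unplaced position (87) were left out of the description. The SE is that of the fitted difference. Gene names follow the platform annotation and RefSeq.

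The members and gene lists were chosen with earlier results of these data known, so list counts are descriptions without a test. Named were Dgat1 and Dgat2, the 15 largest rises and falls without overlap, up to 6 called members of a list with the largest change and 3 uncalled ones of highest signal, up to 10 genes a direction for the comparison of states, and 6 neighbours. Of 161 genes named, 28 were added for their known role after their values were seen: Acaca, Acta2, Actn1, Bmp5, Cnn2, Cpt1a, Cs, Fads1, Fads3, Fasn, Gata4, Id3, Ifih1, Irf9, Lpin1, Mlxipl, Mylk, Myocd, Pdk4, Smad7, Sqle, Stat2, Tagln, Thrsp, Top2a, Tpm1, Tpm2 and Usp18. Alternatives covered centring, quantile normalization, a filter on signal, the choice of probe set, the adjustment, the samples fitted, the eBayes prior, array weights, a minimum change, a replicate block and leaving out each sample.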

Additional observations from a re-analysis of the deposited data

Results flagged for a closer look

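The genotype difference was not the same in both states for 281 genes, by the limma test of the difference itself with Benjamini-Hochberg adjusted p below 0.05. The values in brackets give the D1D2KO minus WT difference in differentiated cells minus that in undifferentiated cells, on the log2 scale. A gene with a higher value need not be higher in D1D2KO adipocytes. Nnat was lower in D1D2KO in both states, by less in differentiated cells, and Fabp4, Hp and Tnnt2 did not pass in differentiated cells. Groups of 3 samples are too small for the test for an outlying sample, which was not run.

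Lower values in differentiated cells were found for these smooth muscle and cytoskeletal genes: Actg2 (-0.90), Actn1 (-0.76), Acta2 (-0.52), Cnn1 (-0.79), Cnn2 (-0.70), Des (-0.92), Myl9 (-0.88), Tagln (-0.77), Tpm1 (-0.79) and Tpm2 (-0.72). The same held for these genes of the matrix and the cell surface: Ccn1 (-0.79), Ccn2 (-1.04), Col12a1 (-0.69), Efemp1 (-1.11), Itga5 (-0.81), Mmp3 (-0.80), Thy1 (-0.72), Tnc (-1.22), Krt19 (-0.71) and P4ha3 (-0.88). Among secreted signals and their makers it held for Hbegf (-0.52), Igfbp2 (-0.66), Pgf (-1.10), Tgfb3 (-0.86), Il33 (-0.80), Ptgs2 (-1.20), Rarres2 (-0.68) and Reg3g (-1.47). Among interferon-stimulated genes it held for Gbp3 (-1.05), Ifih1 (-0.71) and Mx2 (-1.08), and among lipid genes for Dgat2 (-1.20), Elovl6 (-0.98), Fads2 (-0.82) and Ugcg (-0.61). Folh1 (-2.55) and Bcat1 (-0.52) also had lower values in differentiated cells.

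Higher values in differentiated cells were found for these adipocyte and lipid genes: Acvr1c (0.94), Adipoq (1.38), Fabp4 (1.45), Gpat3 (1.52), Nnat (0.73), Pck1 (1.30), Pde3b (0.83) and Prkar2b (1.35). The same held for these genes of oxidation and mitochondria: Acadm (0.66), Cox8b (0.98), Cyc1 (0.66), Hadhb (0.65), Idh3a (0.85) and Ppargc1b (0.76). It also held for Adh1 (0.72), Arg1 (0.73), Bnip3 (1.54), Egln3 (1.82), Gnai1 (1.08), Hp (0.89), Hpx (0.90), Met (0.87) and Tnnt2 (0.75). Of these genes, 16 lost the call on leaving out at least 1 of the 12 samples, namely Acta2, Adh1, Bcat1, Cnn1, Cnn2, Hadhb, Hbegf, Hp, Hpx, Krt19, Mmp3, Mx2, Nnat, Ppargc1b, Rarres2 and Tpm2, with adjusted p of up to 0.134.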

How the results depend on the processing

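Of the 128 genes named in the text that were called in differentiated cells, 0 changed sign under any alternative. Plin1, Adipoq, Myocd and Ucp1 lost their call without at least 1 sample. Since genes that lost a call in this way could be left unnamed, the number of named genes that kept theirs is partly fixed by the choice. The share of all calls that held was 37.1%. Ucp1 also lost it after quantile normalization, with a trended and robust prior and with only the compared samples fitted, and Myocd with only the compared samples. The median over all genes was 0.03 as deposited and after quantile normalization, and -0.08 among genes above the median signal.

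Over all genes 976 of the 2629 calls (37.1%) held without each of the 6 differentiated samples in turn. In differentiated cells 1137 genes were called (398 higher, 739 lower) with only the compared samples fitted, and 76 (7 and 69) with a difference of at least 1. Among genes above the median signal 493 were higher. Leaving out 1 sample gave 1287 to 2721 calls, 471 to 1300 higher and 816 to 1421 lower. In undifferentiated cells the count was 801 after quantile normalization, 840 above the median signal, 2477 with only the compared samples, 4040 with array weights, 55 with a difference of at least 1, and 324 to 1795 without 1 sample. The count for the difference between the states was 515 above the median signal, 435 with a trended and robust prior, 579 with array weights, 39 with a difference of at least 1, and 154 to 437 without 1 sample. Of the neighbours, 10 of 50 and 31 of 200 were called at Dgat1, and 11 of 50 and 33 of 200 (16.5%) at Dgat2. Fewer genes or samples enter some of these alternatives by construction; otherwise the cause was not tested.

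Replicate numbers were not taken to pair the samples, since same-numbered samples correlated in their deviations at 0.117, -0.034 and -0.233 in differentiated and -0.015, 0.184 and 0.141 in undifferentiated cells. With the replicate number as a block, 1006 genes were called in differentiated cells (315 higher, 691 lower) and 3090 in undifferentiated cells, and of the named genes Bmp5, Fads3, Fn1 and Ucp1 lost their call. The block left 7 higher genes of fatty acid oxidation, 5 of the respiratory chain, 1 of the tricarboxylic acid cycle, 3 of brown fat and 7 of the adipocyte markers. It left 3 lower fibroblast markers, 3 cholesterol, 4 cell cycle, 14 matricellular, 4 integrin and laminin and 8 protease genes, and 28 smooth muscle and 18 interferon-stimulated genes.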
